A study of Homo sapiens with 21 samples.

Results

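The genes described here were 10 classical hypoxia-type and mitophagy genes: VEGFA and ADM (secreted ligands), BNIP3 and BNIP3L (mitophagy receptors), EGLN1 and EGLN3 (oxygen sensors), PDK1, SLC2A1 and HK2 (glucose use) and CA9 (pH control). They were chosen by name, with earlier results of these data known, and all 10 were found among the 19694 genes that could be tested. RNA was sequenced from hTERT-HPNE, an immortalized nontransformed pancreatic cell line that carries human telomerase, in 21 libraries of 7 groups with 3 biological replicates each. Untreated cells were taken at 0 h. The other groups were taken 4, 8 and 24 h after 300 µM H2O2, which generates oxidative stress, or 400 ng/ml neocarzinostatin (NCS), a radiomimetic drug that breaks DNA. All groups shared the same growth medium with serum, glucose, EGF and puromycin, no group was labelled as hypoxic, and treated cells received fresh medium with the agent. No untreated cells were labelled with a later time, so treatment and the time in fresh medium cannot be told apart in any comparison with untreated cells, whereas H2O2 and NCS at one time share both.

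Cells sense low oxygen through prolyl hydroxylases of the EGLN family, which use oxygen to mark the alpha subunits of hypoxia-inducible factor (HIF) for removal by the VHL ubiquitin ligase. When the marking stops, HIF alpha pairs with ARNT, binds short DNA elements with a core of ACGTG or GCGTG, and activates genes for glucose uptake, glycolysis, blood vessel growth and the removal of mitochondria. Several of these genes also answer to other stress pathways, so their transcripts alone do not identify HIF activity. BNIP3 and BNIP3L sit in the outer mitochondrial membrane and tether mitochondria to the autophagy machinery.

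Stretches of 4 promoters are shown as examples from genes whose RefSeq promoter windows hold HIF core letters. The windows of EGLN1, SLC2A1 and CA9 also hold a core and are not shown. The capitals mark ACGTG or GCGTG read on either strand (CACGT and CACGC are the same letters on the other strand), and every stretch lies before the annotated start. The BNIP3 stretch is chr10:131982004-131982083 on the minus strand, positions -160 to -81 relative to the start, in GRCh38.p14. The HK2 stretch is chr2:74834960-74835119 on the plus strand, positions -210 to -51. The PDK1 stretch is chr2:172556030-172556089 on the plus strand, positions -60 to -1. The ADM stretch is chr11:10304933-10305012 on the plus strand, positions -140 to -61.
BNIP3: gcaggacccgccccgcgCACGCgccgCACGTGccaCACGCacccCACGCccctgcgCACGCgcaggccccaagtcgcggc
HK2: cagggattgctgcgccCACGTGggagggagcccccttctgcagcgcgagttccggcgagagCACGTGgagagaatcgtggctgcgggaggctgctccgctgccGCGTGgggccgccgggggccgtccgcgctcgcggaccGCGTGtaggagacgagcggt
PDK1: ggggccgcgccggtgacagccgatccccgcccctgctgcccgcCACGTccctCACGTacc
ADM: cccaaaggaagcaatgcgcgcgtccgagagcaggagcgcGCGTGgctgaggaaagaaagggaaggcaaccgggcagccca

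The letters CACGTG hold the first core on both strands and were counted on each. BNIP3 and the HK2 window shown held 6 cores each, the PDK1 window shown held 2 and ADM held 1. HK2 and PDK1 each had another window, with 3 and 0 cores, so the richer window of each is shown. Of the 8 genes with a promoter window of 300 bases (250 before and 50 after the start), 7 held at least 1 core, EGLN3 held none, and VEGFA and BNIP3L had no window. Cores this short are common: 48.4% of all 35093 windows held either one, 21.4% held ACGTG and 36.5% held GCGTG. These shares count single windows, whereas the 7 of 8 counts genes with a core in any of their windows. The matches therefore describe the letters and not binding.

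Values are the rLog values made by the authors, which are log2 read counts normalized between libraries and shrunk towards each gene's mean. Differences are log2 differences of these values, are smaller than the underlying count changes, and compare one gene between groups, never one gene with another. A gene was called changed at a Benjamini-Hochberg adjusted p under 0.05 in limma over all 19694 genes. Library medians lay between 7.14 and 7.19. The 3 libraries of H2O2 at 8 h were farther from each other (mean distances 13.1 to 14.9) than those of any other group (9.28 to 11). Of the 20 cell type markers, the mesenchymal and ductal markers VIM (mean 17.03), CD44 (13.71), NES (12.03) and KRT18 (11.62) were high and KRT19 was low at 0.60, while PRSS1, CELA3A and INS were listed at 0 in every library. Among the 14 markers of other cell types, CD68 was the one above 4 (10.11, from 9.93 to 10.57).

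The clearest responses were those of VEGFA, which rose early and stayed high in H2O2 and rose late in NCS, and HK2, which rose for a short time in H2O2. BNIP3, BNIP3L and PDK1 crossed over. Each was called above its NCS level in H2O2 at 4 and 8 h and under it at 24 h. The 8 h calls of BNIP3L and PDK1 and the 24 h call of BNIP3 were lost in some alternative fits. ADM fell after both agents and was back at the untreated level at 8 h of H2O2, alone among the treated groups. SLC2A1 fell slightly in H2O2, CA9 was low in every library and EGLN3 was at the floor of the table. RNA came from whole cultures, so fewer cells making a transcript and less transcript per cell cannot be told apart in any of these values.

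**Figure D1:**
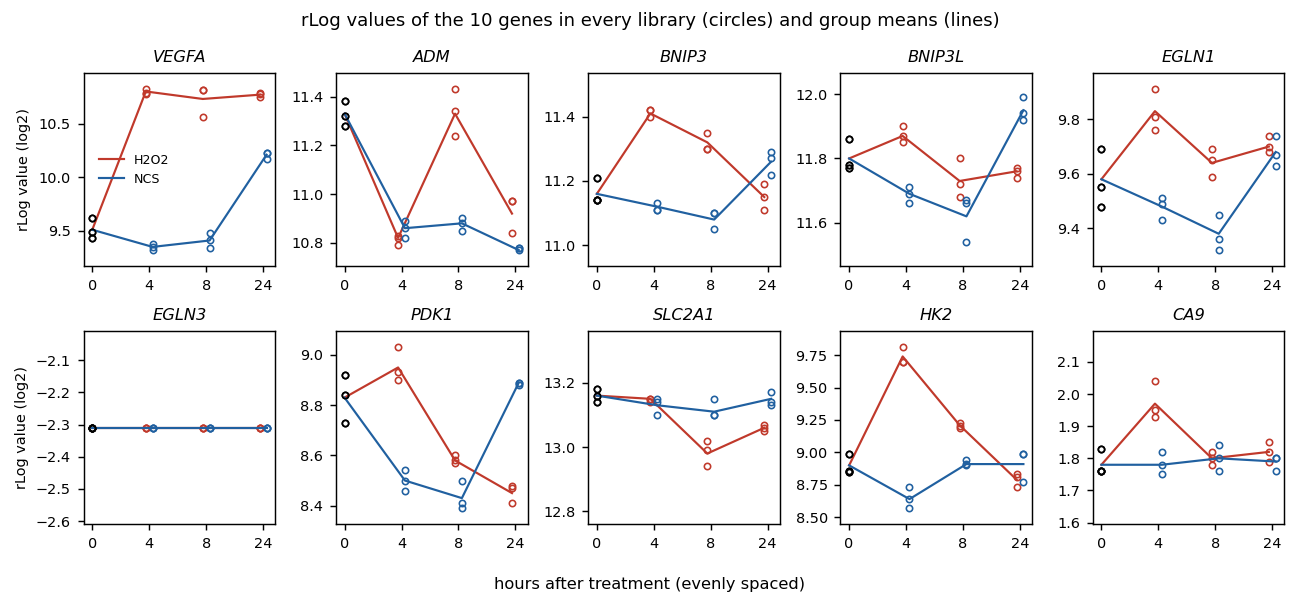
rLog values (log2, vertical axes, each with its own range) of the 10 genes against hours after treatment (evenly spaced categories, 0 h is untreated). Circles are libraries, black for untreated, red for H2O2 and blue for NCS, and lines join group means. VEGFA in H2O2 sits between 10.56 and 10.82 at all 3 times, and HK2 peaks at 4 h of H2O2. The lines of HK2, BNIP3, BNIP3L and PDK1 cross between 8 and 24 h.

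VEGFA encodes vascular endothelial growth factor A, the main signal for new blood vessels. Its rLog values were 9.62, 9.49 and 9.43 in the untreated libraries. In H2O2 they were 10.82, 10.79 and 10.78 at 4 h, then 10.81, 10.56 and 10.81 at 8 h, and last 10.75, 10.79 and 10.78 at 24 h. Every H2O2 library was above every untreated and NCS library, and the lowest H2O2 value was that of replicate 2 at 8 h. VEGFA was higher than in untreated cells at 4 h by 1.29 (SE 0.06, adjusted p = 3.37e-12), a ratio of 2.44 on the rLog scale. At 8 h the difference was 1.22 (SE 0.06, adjusted p = 3.2e-11), and at 24 h it was 1.26 (SE 0.06, adjusted p = 1.36e-12). These steps ranked 62, 31 and 33 of all genes by rise. Within H2O2 the level did not move detectably after 4 h, with -0.07 from 4 to 8 h and 0.05 from 8 to 24 h.

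In response to NCS, VEGFA took another course. Its values were 9.38, 9.35 and 9.32 at 4 h, with 9.48, 9.41 and 9.34 at 8 h. The 4 h libraries were below every untreated library and the 8 h ones overlapped them. At 24 h they were 10.17, 10.23 and 10.23, above every untreated library and under every H2O2 library. The early differences from untreated cells were not called (-0.16 with adjusted p = 0.0576 at 4 h, and -0.10 with adjusted p = 0.242 at 8 h). The 4 h value passed with library medians aligned (-0.17, adjusted p = 0.0159), among genes with a mean of at least 5 (-0.16, adjusted p = 0.0155) and without untreated replicate 3 (-0.20, adjusted p = 0.0279). The late difference was called at 0.70 (SE 0.06, adjusted p = 6.63e-09). The step of VEGFA from 8 to 24 h of NCS, 0.80, ranked 9 of all genes by rise.

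ADM encodes adrenomedullin, a secreted peptide that widens vessels. Untreated libraries had rLog values of 11.28, 11.38 and 11.32. After H2O2 the values were 10.83, 10.79 and 10.82 at 4 h, followed by 11.43, 11.24 and 11.34 at 8 h, and finally 10.97, 10.97 and 10.84 at 24 h. The 8 h libraries overlapped the untreated ones, and those at 4 and 24 h were below both. ADM differed from untreated cells by -0.51 at 4 h (SE 0.04, adjusted p = 9.18e-09), only 0.00682 at 8 h (adjusted p = 0.938) and again -0.40 at 24 h (adjusted p = 1.39e-07). In NCS all libraries lay between 10.77 and 10.90, below every untreated library. The 3 NCS differences were -0.47, -0.45 and -0.55 at 4, 8 and 24 h (adjusted p = 1.35e-07, 1.15e-07 and 1.99e-09). The agents therefore separated at 8 h, where ADM was higher in H2O2 by 0.46 (SE 0.04, adjusted p = 1.15e-07). At 24 h it was higher by 0.15 (adjusted p = 0.0113), a call lost without H2O2 24 h replicate 1 (0.13, adjusted p = 0.0585) or replicate 2 (0.13, adjusted p = 0.0601).

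BNIP3 is the mitophagy receptor most directly tied to hypoxia. Its values were 11.21, 11.14 and 11.14 in untreated cells. In H2O2 they were 11.40, 11.42 and 11.42 at 4 h, next 11.35, 11.30 and 11.30 at 8 h, and lastly 11.19, 11.11 and 11.15 at 24 h. Both early H2O2 groups were above all untreated libraries, and the 24 h group overlapped them. BNIP3 rose at 4 h by 0.25 (SE 0.03, adjusted p = 4.4e-07) and later at 8 h by 0.15 (SE 0.03, adjusted p = 0.000131), with -0.01 at 24 h (adjusted p = 0.806). In NCS the values were 11.11, 11.13 and 11.11 at 4 h, then 11.10, 11.10 and 11.05 at 8 h, and last 11.29, 11.27 and 11.22 at 24 h. The NCS libraries were below the untreated ones at 4 and 8 h and above them at 24 h. The differences were -0.05 (adjusted p = 0.273), -0.08 (adjusted p = 0.0336) and 0.09 (adjusted p = 0.00795). The fall of BNIP3 at 8 h was lost without untreated replicate 1 (-0.06, adjusted p = 0.182) or NCS 8 h replicate 3 (-0.06, adjusted p = 0.158), and with quantile normalization (-0.04, adjusted p = 0.287). The 24 h call was lost with only these groups in the fit (0.09, adjusted p = 0.0568). GENCODE v29 names 39 BNIP3 pseudogenes, of which 0 were in the table, so reads shared with these copies make its level uncertain.

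BNIP3L, also called NIX, clears mitochondria from maturing red cells. Untreated values were 11.86, 11.77 and 11.78. In H2O2 it was not called at any time, with values of 11.90, 11.85 and 11.87 at 4 h, followed by 11.80, 11.72 and 11.68 at 8 h, and finally 11.74, 11.77 and 11.76 at 24 h. The differences were 0.07, -0.07 and -0.05 (adjusted p = 0.127, 0.137 and 0.33). The first passed without untreated replicate 1 (0.10, adjusted p = 0.0465) and the second without H2O2 8 h replicate 1 (-0.11, adjusted p = 0.0297). In NCS the BNIP3L values were 11.66, 11.71 and 11.69 at 4 h, next 11.66, 11.67 and 11.54 at 8 h, and lastly 11.99, 11.94 and 11.92 at 24 h. Each NCS group stood clear of the untreated libraries, first below them and then above. BNIP3L fell at 4 h by 0.12 (adjusted p = 0.0266) and later at 8 h by 0.18 (SE 0.04, adjusted p = 0.000719) and rose at 24 h by 0.15 (adjusted p = 0.00259). The 4 h call was lost without untreated replicate 1 (-0.09, adjusted p = 0.153), NCS 4 h replicate 1 (-0.10, adjusted p = 0.106) or NCS 4 h replicate 3 (-0.12, adjusted p = 0.0613). It was also lost with quantile normalization (-0.10, adjusted p = 0.0578).

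EGLN1 and EGLN3 encode the oxygen sensors PHD2 and PHD3, and both are themselves HIF target genes in many cells. EGLN1 ranged from 9.48 to 9.69 in untreated cells, from 9.76 to 9.91 at 4 h of H2O2 and from 9.32 to 9.45 at 8 h of NCS, and these groups did not overlap. It rose by 0.25 at 4 h of H2O2 (SE 0.05, adjusted p = 0.000461) and fell by 0.20 at 8 h of NCS (SE 0.05, adjusted p = 0.0058, or 0.077 with only these groups in the fit). The other EGLN1 differences from untreated cells, 0.07 and 0.13 in H2O2 at 8 and 24 h and -0.10 and 0.10 in NCS at 4 and 24 h, were not called. Untreated replicate 1, the highest of its group at 9.69, bore on 3 of them. Without it EGLN1 passed at 8 h of H2O2 (0.13, adjusted p = 0.0473), at 24 h of H2O2 (0.19, adjusted p = 0.0044) and at 24 h of NCS (0.16, adjusted p = 0.0123). Both 24 h values also passed with quantile normalization (0.17 each, adjusted p = 0.00984 and 0.0123). EGLN3 had a value of -2.31 in every library, with a range of 0.00149 over all of them. It was 1 of 733 genes (3.72%) under -2.3 in every library, the lowest values in the table, where a change would not be detectable.

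HK2 encodes hexokinase 2, which traps glucose in the cell by phosphorylation. Its values were 8.85, 8.86 and 8.99 in untreated cells. In H2O2 they were 9.70, 9.81 and 9.70 at 4 h, then 9.20, 9.23 and 9.19 at 8 h, and last 8.83, 8.81 and 8.73 at 24 h. The H2O2 groups thus descended without overlap from 4 to 8 to 24 h. HK2 was higher than in untreated cells at 4 h by 0.84 (SE 0.06, adjusted p = 8.85e-10) and later at 8 h by 0.31 (SE 0.06, adjusted p = 0.000211). At 24 h it differed by -0.11 (adjusted p = 0.126), which passed with library medians aligned (-0.13, adjusted p = 0.0359). The falls of HK2 from 4 to 8 h (-0.53, adjusted p = 3.91e-07) and from 8 to 24 h (-0.42, adjusted p = 5.72e-06) were both called. In NCS the values were 8.57, 8.73 and 8.64 at 4 h, followed by 8.91, 8.94 and 8.90 at 8 h, and finally 8.99, 8.99 and 8.77 at 24 h. Only the 4 h group of NCS stood apart from the untreated libraries, and HK2 fell there by 0.26 (SE 0.06, adjusted p = 0.0029).

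PDK1 encodes a pyruvate dehydrogenase kinase that keeps pyruvate out of the mitochondrial citric acid cycle. Untreated values were 8.92, 8.73 and 8.84. In H2O2 they were 8.90, 9.03 and 8.93 at 4 h, next 8.57, 8.60 and 8.58 at 8 h, and lastly 8.47, 8.41 and 8.48 at 24 h. The 4 h group overlapped the untreated one, and the later groups were below it. PDK1 differed at 4 h by 0.12 (adjusted p = 0.0272) and fell at 8 h by 0.25 (SE 0.04, adjusted p = 0.000145) and later at 24 h by 0.38 (SE 0.04, adjusted p = 8.02e-07). Its 4 h call was lost without untreated replicate 2 (0.07, adjusted p = 0.181), without H2O2 4 h replicate 2 (0.09, adjusted p = 0.148), with library medians aligned (0.11, adjusted p = 0.0575) and with only these groups in the fit (adjusted p = 0.15). In NCS the highest level came at 24 h, with PDK1 values of 8.50, 8.46 and 8.54 at 4 h, then 8.39, 8.50 and 8.41 at 8 h, and last 8.89, 8.89 and 8.88 at 24 h. The early NCS groups lay below every untreated library and the 24 h group lay among them. PDK1 fell in NCS at 4 h by 0.33 (SE 0.04, adjusted p = 2.02e-05) and later at 8 h by 0.40 (SE 0.04, adjusted p = 1.27e-06), while the difference was 0.06 at 24 h (adjusted p = 0.375). The 24 h value passed with quantile normalization (0.12, adjusted p = 0.0354).

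SLC2A1 encodes GLUT1, the glucose transporter of most cells. It ranged over only 0.241 in all libraries, from 12.94 to 13.18. At 4 h of H2O2 it overlapped the untreated libraries, with a difference of -0.01 (adjusted p = 0.668). At 8 h of H2O2 it lay between 12.94 and 13.02 and at 24 h between 13.05 and 13.07, below the untreated range of 13.14 to 13.18. SLC2A1 fell at 8 h by 0.17 (SE 0.02, adjusted p = 1.86e-06) and later at 24 h by 0.10 (adjusted p = 0.000786), of which the second was lost with quantile normalization (-0.03, adjusted p = 0.288). It was not called in NCS, where it differed from untreated cells by -0.03, -0.04 and -0.01 at 4, 8 and 24 h. The 8 h value passed with library medians aligned (-0.07, adjusted p = 0.0238).

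CA9 encodes carbonic anhydrase 9, a surface enzyme that is a widely used hypoxia marker. Its level was low in every library, from 1.75 to 2.04. At 4 h of H2O2 the values of CA9 were 1.93, 1.95 and 2.04, above every other library, and untreated values were 1.76, 1.76 and 1.83. The difference of 0.19 at 4 h (SE 0.03, adjusted p = 4.78e-05) was called, and those at 8 and 24 h, 0.01 and 0.03, were not. With quantile normalization the 4 h difference was 0.10 (adjusted p = 0.0229). Of the 845 genes with a mean within 0.5 of that of CA9, 47.2% were called higher at 4 h of H2O2 and 0.947% at 4 h of NCS, a comparison chosen after the values were seen. The rise of CA9 was thus shared by a large part of the genes at its level.

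Set against H2O2 at the same time, NCS shares both the hours and the fresh medium. At 4 h, 7 of the 10 genes were higher in H2O2 and 0 were lower. Of all genes 44.4% were called, 26.3% higher and 18% lower. At 8 h, 7 were higher and 1 was lower, beside 34.1% of all genes called, 18.7% higher and 15.4% lower. At 24 h, 2 were higher and 4 were lower, beside 21.9% of all genes, 11% higher and 10.9% lower. In order of time the median difference of the 10 genes was 0.24, 0.19 and -0.04, where that of all genes was 0.00512, -8.02e-05 and -0.000278. The sign of the balance therefore changed between 8 and 24 h.

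**Figure D2:**
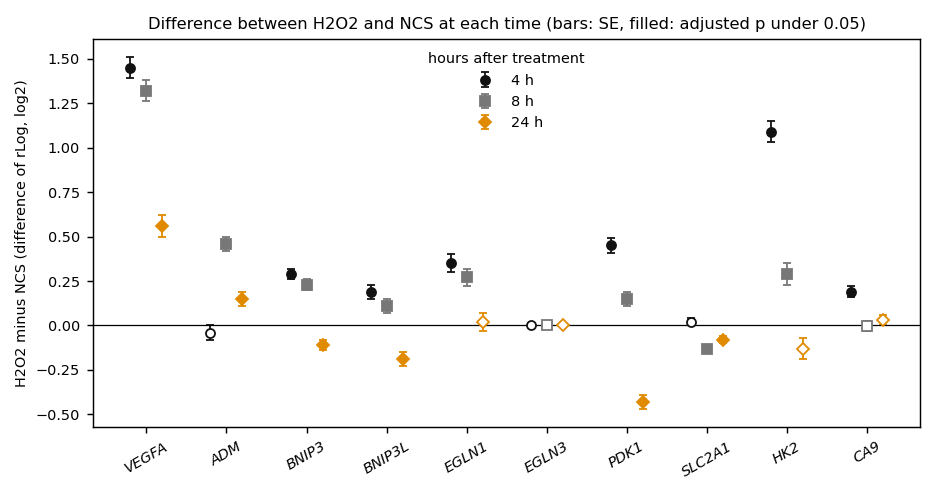
Difference between H2O2 and NCS (vertical axis, log2 difference of rLog values) for each of the 10 genes at 4 h (black circles), 8 h (grey squares) and 24 h (orange diamonds). Bars are standard errors and filled symbols passed an adjusted p of 0.05. VEGFA is highest at each time, from 1.45 to 0.56, and the called differences of BNIP3, BNIP3L and PDK1 go from above 0 to below it.

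VEGFA in H2O2 exceeded its level in NCS at 4 h by 1.45 (SE 0.06, adjusted p = 1.07e-12), at 8 h by 1.32 (SE 0.06, adjusted p = 4.76e-11) and later at 24 h by 0.56 (SE 0.06, adjusted p = 6.26e-07). HK2 was higher at 4 h by 1.09 (SE 0.06, adjusted p = 3.31e-11) and later at 8 h by 0.29 (SE 0.06, adjusted p = 0.000422). At 24 h HK2 differed by -0.13 (adjusted p = 0.126), which passed without NCS 24 h replicate 3, the lowest of its group (-0.20, adjusted p = 0.00782), with library medians aligned (-0.15, adjusted p = 0.0206) and with quantile normalization (-0.17, adjusted p = 0.0466). VEGFA and HK2 were past a 2-fold difference at 4 h (0.574% of all genes) and VEGFA at 8 h (0.162%). At 24 h, 0 of the 10 were past it (0.0152%), in limma.

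Besides HK2, whose 24 h difference was negative but not called (-0.13, adjusted p = 0.126), 3 genes crossed over with calls at each time. The crossover of PDK1 was the widest of these 3. Its level in H2O2 exceeded that in NCS at 4 h by 0.45 (SE 0.04, adjusted p = 1.09e-07) and later at 8 h by 0.15 (adjusted p = 0.0107, or 0.0505 without NCS 8 h replicate 1), and lower at 24 h by 0.43 (SE 0.04, adjusted p = 6.53e-07). At 24 h BNIP3 was lower in H2O2 than in NCS by 0.11 (adjusted p = 0.00599, or 0.0516 with only these groups in the fit). BNIP3L was lower at 24 h by 0.19 (SE 0.04, adjusted p = 0.000481). The higher level of BNIP3L in H2O2 at 8 h (adjusted p = 0.0203) was lost without H2O2 8 h replicate 1 (0.08, adjusted p = 0.133) or NCS 8 h replicate 3 (0.07, adjusted p = 0.143). It was also lost with quantile normalization (0.09, adjusted p = 0.0673) and with only these groups in the fit (0.11, adjusted p = 0.156). From 8 to 24 h of NCS, the interval of the turn, PDK1 rose by 0.45, BNIP3L by 0.33 and BNIP3 by 0.17. Over the same interval in H2O2 BNIP3 differed by -0.17 (adjusted p = 4.39e-05), PDK1 by -0.13 (adjusted p = 0.0203) and BNIP3L by 0.02, which was not called (adjusted p = 0.702). The PDK1 call was lost without H2O2 8 h replicate 2 (-0.12, adjusted p = 0.0546) or H2O2 24 h replicate 2 (-0.11, adjusted p = 0.0937).

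EGLN1 was above its NCS level at 4 h by 0.35 (SE 0.05, adjusted p = 1.59e-05) and still 0.27 at 8 h (SE 0.05, adjusted p = 0.000329) and differed at 24 h by 0.02 (adjusted p = 0.86). SLC2A1 in H2O2 lay under its NCS level at 8 h by 0.13 (SE 0.02, adjusted p = 7.01e-05). Its difference at 24 h, -0.08 (adjusted p = 0.00624), was -0.03 with quantile normalization (adjusted p = 0.505). CA9 differed at 4 h by 0.19 (SE 0.03, adjusted p = 4.94e-05) and at 8 and 24 h by -0.00332 and 0.03, which were not called.

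The counts against untreated cells have to be read against the large share of all genes that moved. These 6 comparisons share the same untreated libraries. In H2O2, 6 of the 10 genes rose and 1 fell at 4 h, where 45.9% of all genes were called, 26.2% up and 19.7% down. At 8 h of H2O2 3 rose and 2 fell, beside 37.4% of all genes (18.8% up, 18.6% down). At 24 h 1 rose and 3 fell, beside 40% (20.2% up, 19.9% down). With library medians aligned the split was 5 to 2 at 4 h and 1 to 5 at 24 h. Both counts of falls held EGLN3, which was at the floor. In that setting 8924 and 10157 of all genes were called, of which 46.1% and 35.2% were higher. With quantile normalization the split was 2 to 2 at 24 h, beside 7996 genes called, 55.5% of them higher. In NCS 0 rose and 4 fell at 4 h, where 17.2% of all genes were called, 7.47% up and 9.72% down. At 8 h of NCS 0 rose and 5 fell, beside 23.9% of all genes (10.5% up, 13.3% down), and with only these groups in the fit 3 passed. At 24 h 3 rose and 1 fell, beside 38% (19.6% up, 18.4% down). With library medians aligned 0 rose and 7 fell at 8 h of NCS, with EGLN3 among the falls. In that setting 7618 of all genes were called, of which only 22.7% were higher, so most calls were falls. With quantile normalization 5 rose and 1 fell at 24 h of NCS, beside 7633 genes called, 58.1% of them higher. At 24 h of both agents the share of the 10 genes called was near that of all genes without these rescalings, and at 4 and 8 h of NCS the calls were all falls, led by ADM and PDK1. VEGFA was the one member past 2-fold in H2O2 at 4, 8 and 24 h, where 0.696%, 0.518% and 1.61% of all genes were. In NCS 0 members were past 2-fold in limma, beside 0.218%, 0.34% and 1.5% of all genes.

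Within each agent the genes moved at different times. From 4 to 8 h of H2O2 7 fell and 1 (ADM) rose, beside 45.7% of all genes, 18% up and 27.7% down. From 8 to 24 h 4 fell and 1 (SLC2A1) rose, beside 42.6% (19.4% up, 23.2% down). That rise of SLC2A1 (0.08, adjusted p = 0.00472) was lost with only these groups in the fit (adjusted p = 0.0587). In NCS 1 gene, HK2, rose from 4 to 8 h and 0 fell, beside 13.7% of all genes (6.16% up, 7.5% down). From 8 to 24 h of NCS 5 rose and 0 fell, beside 29.9% (14.9% up, 15% down). These were VEGFA by 0.80, PDK1 by 0.45, BNIP3L by 0.33, EGLN1 by 0.30 and BNIP3 by 0.17. The change of the difference between agents from 4 to 24 h was called for 9 of the 10 genes, all but EGLN3, with 1 up and 8 down. Of all genes 39.4% passed that test, 16.6% up and 22.7% down, and 0.564% by more than 2-fold, as did HK2.

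HIF1A and EPAS1 were higher at 24 h of both agents, and HIF3A was not called at 24 h of either. HIF1A, the oxygen-regulated alpha subunit, had values of 13.86 to 13.88 in untreated cells and 14.18 to 14.21 at 24 h of H2O2. It rose there by 0.32 (SE 0.0189, adjusted p = 7.98e-11), and by 0.21 at 24 h of NCS (adjusted p = 3.56e-08). EPAS1, which encodes the HIF-2 alpha subunit, went from 11.12, 11.21 and 11.13 in untreated cells to 11.73, 11.50 and 11.63 at 8 h and 12.29, 12.34 and 12.31 at 24 h of H2O2. The 24 h rise was 1.16 (SE 0.0431, adjusted p = 1.27e-13), and in NCS it was 0.58 (adjusted p = 2.41e-09). At 24 h the H2O2 level of EPAS1 exceeded the NCS level by 0.58 (adjusted p = 1.93e-08). EPAS1 had also risen at 8 h of H2O2 (0.47, adjusted p = 8.96e-08). Its difference at 4 h of NCS (0.15, adjusted p = 0.025) was lost without any one of untreated replicates 1 and 3 and NCS 4 h replicates 1 and 2 (0.13 to 0.14, adjusted p = 0.0716 to 0.103). ARNT, the shared beta subunit, fell by 0.27 at 4 h of H2O2 (adjusted p = 8.31e-08) and rose by 0.20 and 0.21 at 24 h of H2O2 and NCS.

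At 4 h of H2O2, 6 of the 9 genes of this list fell and 0 rose, next to 19.7% of all genes down and 26.2% up, and with quantile normalization 7 fell. Besides ARNT these were VHL (-0.31, adjusted p = 6.23e-06), HIF1AN, the asparagine hydroxylase that blocks HIF alpha (-0.19, adjusted p = 2.93e-06), CITED2, a competitor of HIF for its coactivator (-0.40, adjusted p = 9.61e-06), HIF3A (-0.25, adjusted p = 0.00399) and ARNT2 (-0.21, adjusted p = 0.0126, or 0.071 without untreated replicate 1). At 4 h of NCS 4 of the 9 fell and 1 rose, beside 9.72% of all genes down and 7.47% up. Without 1 library at a time 2 to 4 fell there. Set against NCS at 4 h, 2 were higher and 3 lower in H2O2, beside 26.3% and 18% of all genes. Means at 4 h of H2O2 and NCS were 9.87 and 10.04 for ARNT, 9.08 and 9.31 for VHL, and 10.97 and 11.18 for HIF1AN. They were 12.28 and 12.30 for CITED2, 7.79 and 7.84 for HIF3A, and 7.30 and 7.04 for ARNT2. VHL rose by 0.16 at 8 h of H2O2 (adjusted p = 0.0044, or 0.0562 with only these groups in the fit). It was then higher than in NCS by 0.35 (adjusted p = 3.3e-06). ARNT2 was lower at all times in both agents, furthest at 8 h of H2O2 (-0.75, adjusted p = 5.74e-08). EGLN2, the remaining prolyl hydroxylase, was listed between -0.73 and -0.67 and was not called, though with quantile normalization its difference at 4 h of H2O2 passed (-0.04, adjusted p = 0.0022). EGLN2 shares exons with the read-through gene RAB4B-EGLN2, which was listed at 0 in 21 libraries, so its level is uncertain.

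**Figure D3:**
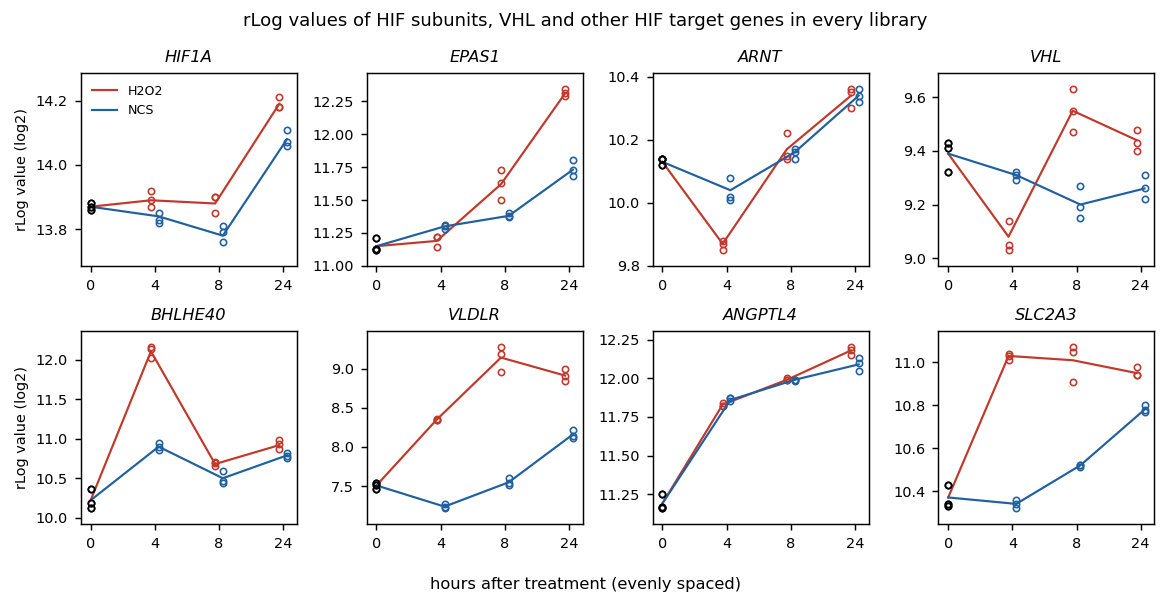
rLog values (log2, vertical axes, each with its own range) of HIF1A, EPAS1, ARNT, VHL, BHLHE40, VLDLR, ANGPTL4 and SLC2A3 against hours after treatment (evenly spaced categories, 0 h is untreated). Circles are libraries, black for untreated, red for H2O2 and blue for NCS, and lines join group means. EPAS1 reaches 12.29 to 12.34 at 24 h of H2O2, and BHLHE40 peaks at 4 h of H2O2.

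For the lists that follow, the shares of all genes called were 45.9%, 37.4% and 40% at 4, 8 and 24 h of H2O2 and 17.2%, 23.9% and 38% in NCS, and the counts describe the lists without a test. Of 20 other HIF target genes, 12 rose and 2 fell at 4 h of H2O2, 9 rose and 3 fell at 8 h, and 12 rose and 4 fell at 24 h. In NCS 6 rose and 6 fell at 4 h, 5 and 5 at 8 h, and 15 rose and 0 fell at 24 h (beside 19.6% of all genes up and 18.4% down), with a median of 0.19 over the list and -0.000137 over all genes. Without 1 library at a time the last count was 13 to 15 risen and 0 to 1 fallen. BHLHE40, a repressor that also keeps circadian time, went from 10.12 to 10.36 in untreated cells to 12.02 to 12.16 at 4 h of H2O2, a rise of 1.89 (SE 0.0523, adjusted p = 7.82e-15). In NCS at 4 h BHLHE40 rose by 0.68 (adjusted p = 3.24e-08). VLDLR, a lipoprotein receptor, rose by 0.84, 1.63 and 1.41 at 4, 8 and 24 h of H2O2 (adjusted p = 1.89e-09, 1.56e-12 and 6.52e-13). VLDLR fell by 0.26 at 4 h of NCS (adjusted p = 0.00361) and rose at 24 h by 0.65 (adjusted p = 3.72e-08). ANGPTL4, a secreted inhibitor of lipoprotein lipase, rose after both agents, by 0.98 at 24 h of H2O2 (adjusted p = 4.75e-16), and at the same time in NCS by 0.90 (adjusted p = 1.07e-15).

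**Figure D4:**
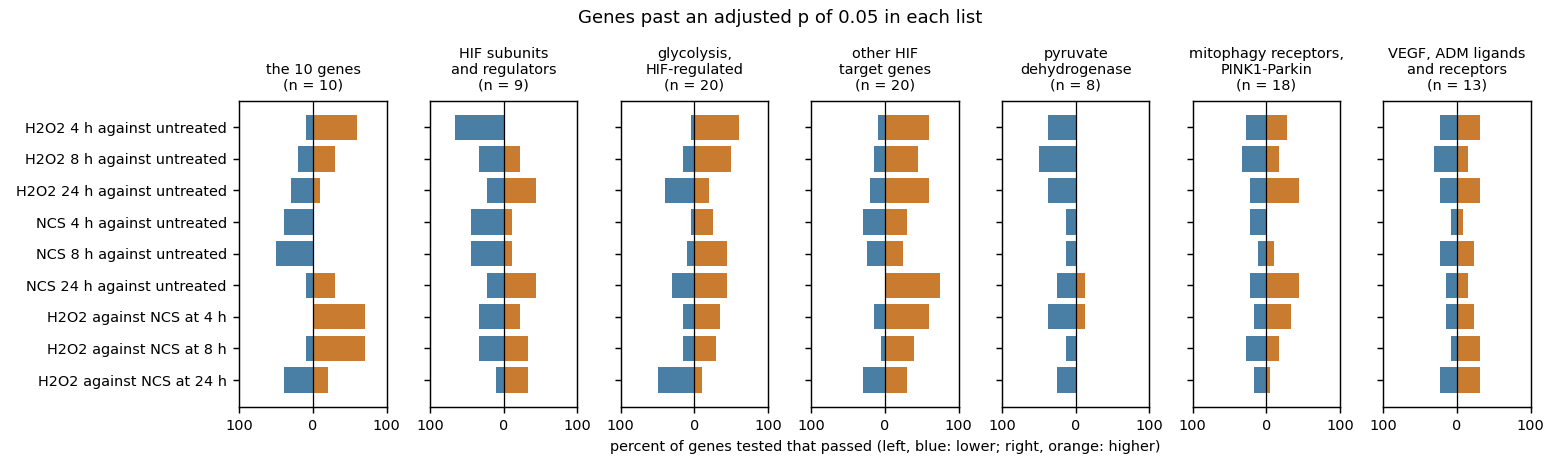
Percent of the genes tested in each list (horizontal axes, n above each panel) that passed an adjusted p of 0.05 in each of 9 comparisons, lower to the left in blue and higher to the right in orange. For the 10 genes the bars at 4 and 8 h of NCS point left, and for the other HIF target genes 15 of 20 point right at 24 h of NCS.

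Of 20 glycolysis genes known as HIF targets, 12 rose and 1 fell at 4 h of H2O2, and 10 rose and 3 fell at 8 h, or 6 and 2 without untreated replicate 1. Of all genes 26.2% rose and 19.7% fell at 4 h and 18.8% and 18.6% at 8 h. At 24 h 4 rose and 8 fell, a split that turned to 8 and 4 with quantile normalization. In NCS the counts risen and fallen were 5 and 1, then 9 and 2, then 9 and 6. The 8 h split in NCS was 5 and 3 with library medians aligned, and 6 and 1 without untreated replicate 1 or NCS 8 h replicate 2. Without 1 library at a time 6 to 8 rose and 1 to 2 fell there. PFKFB3, whose enzyme makes the activator of phosphofructokinase, had the course of HK2 in H2O2, with a rise of 0.89 at 4 h (SE 0.03, adjusted p = 1.3e-13), a smaller one of 0.31 at 8 h (adjusted p = 1.96e-07) and then -0.11 at 24 h (adjusted p = 0.0057, or 0.0962 with quantile normalization). Unlike HK2, PFKFB3 rose at 4 h of NCS, by 0.39 (adjusted p = 3.37e-08). SLC2A3, the glucose transporter GLUT3, rose in H2O2 by 0.66, 0.64 and 0.58 at 4, 8 and 24 h (adjusted p = 2.18e-11, 1.15e-10 and 4.5e-11), where SLC2A1 did not rise. In NCS SLC2A3 rose at 24 h by 0.41 (adjusted p = 6.96e-09). PFKFB4, a relative of PFKFB3, differed early between the agents, with 8.67 to 8.77 at 4 h of H2O2 and 9.20 to 9.36 at 4 h of NCS against 8.84 to 8.91 in untreated cells. The H2O2 minus NCS difference of PFKFB4 was -0.59 at 4 h and -0.51 at 8 h (adjusted p = 9.84e-09 and 1.8e-07). It was lower than in untreated cells at 4 and 8 h of H2O2 (-0.15 and -0.13, adjusted p = 0.0141 and 0.0374), calls lost with quantile normalization (adjusted p = 0.138 and 0.0591). In NCS PFKFB4 rose by 0.44 and 0.38 at these times. It rose at 24 h in both agents, by 0.65 and 0.67 (adjusted p = 1.24e-09 and 9.76e-10).

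Pyruvate dehydrogenase is switched off by PDK kinases and switched on by PDP phosphatases. In H2O2, 3, 4 and 3 of the other 8 genes of this system fell at 4, 8 and 24 h and 0 rose. Of all genes 19.7%, 18.6% and 19.9% fell and 26.2%, 18.8% and 20.2% rose at these times. In either direction the shares called were near those of all genes. The 8 h count was 2 to 3 without 1 library at a time (2 without untreated replicate 1), and the 24 h count was 5 with library medians aligned. With quantile normalization 1 rose at 24 h and 2 fell. The phosphatase genes fell at 4 h of H2O2, PDP2 by 0.56 (SE 0.0453, adjusted p = 1.09e-08) and PDP1 by 0.47 (SE 0.041, adjusted p = 3.58e-08). At 4 h of NCS they differed from untreated cells by -0.12 and -0.10 (adjusted p = 0.0764 and 0.106), and both passed with library medians aligned (-0.13 and -0.11, adjusted p = 0.0465 and 0.0464). PDK2 fell at 8 h of H2O2 by 0.26 (adjusted p = 6.98e-05). In NCS 1 fell at 4 h and 1 at 8 h (3 and 4 with library medians aligned), and 1 rose and 2 fell at 24 h.

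Of 18 other mitophagy genes, 5 rose and 5 fell at 4 h of H2O2, followed by 3 and 6 at 8 h and by 8 and 4 at 24 h. The share called at 4 h was near that of all genes. The 4 h split was 3 and 7 with library medians aligned, and 3 rose without H2O2 4 h replicate 3, untreated replicate 1 or untreated replicate 2. The 24 h split in H2O2 was 8 and 2 with quantile normalization and without H2O2 24 h replicate 1. In NCS 0 rose and 4 fell at 4 h, followed by 2 and 2 at 8 h and by 8 and 4 at 24 h. The 4 falls at 4 h of NCS were 2 with quantile normalization and 2 to 3 without 1 library at a time. They were 2 without untreated replicate 1 or NCS 4 h replicate 1. The receptors NBR1 and OPTN, which link ubiquitin-marked cargo to the autophagy membrane, rose at 24 h. NBR1 rose by 0.35 and 0.36 in H2O2 and NCS (adjusted p = 3.09e-10 and 2.27e-10), with -0.01 between them (adjusted p = 0.876). OPTN rose by 0.11 and 0.33 (adjusted p = 0.000442 and 2.82e-10), and its H2O2 minus NCS difference was -0.23 (adjusted p = 3.28e-07). PGAM5, a phosphatase of the mitochondrial membrane, fell at 24 h of H2O2 and NCS, with differences of -0.32 and -0.39 (adjusted p = 2.07e-06 and 1.59e-07, in that order).

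Of 14 genes for other VEGF and adrenomedullin ligands and receptors, 13 were tested and RAMP3 was listed at 0 in 21 libraries. In H2O2, 4 rose and 3 fell at 4 h, followed by 2 and 4 at 8 h and by 4 and 3 at 24 h. With library medians aligned these were 2 and 3, 2 and 3, and 3 and 4, and without H2O2 4 h replicate 1 or untreated replicate 3 the 4 h counts were 2 and 3. The counts in NCS were 1 and 1, 3 and 3, and 2 and 2. ADM2 is a relative of ADM. Its values were 7.58 to 7.73 in untreated cells, 9.33 to 9.83 at 8 h and 9.60 to 9.66 at 24 h of H2O2. The rise of ADM2 was 1.26, 1.99 and 1.96 in H2O2 at 4, 8 and 24 h (adjusted p = 3.17e-09, 3.66e-11 and 3.16e-12), with -0.18, 0.35 and 1.17 in NCS (adjusted p = 0.242, 0.00868 and 5.73e-09). PGF, placental growth factor, rose by 0.96 at 8 h of H2O2 (SE 0.0949, adjusted p = 2.15e-07). VEGFC, a lymphatic growth factor, fell by 0.47 at 24 h of H2O2 (SE 0.019, adjusted p = 3.82e-13), whereas in NCS the difference was -0.03 (adjusted p = 0.228).

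The genes most like each member over the 21 libraries are given as a description, among genes with a mean of at least 5. The libraries share treatment and time, so any pair of genes that respond alike correlates. VEGFA was most like MAP1LC3B, which encodes an autophagy membrane protein (Pearson r 0.981), SLC2A3 (0.976) and XPOT (0.974). HK2 was most like PLAGL1 (0.967), ADM like PPIG (0.927), and BNIP3 like GOLT1B (0.918), with DUSP10 and the autophagy gene ATG12 next (0.914 each). EGLN1 was most like B2M (0.933), BNIP3L like SLC1A1 (0.922), PDK1 like ANXA1 (0.92), SLC2A1 like METTL3 (0.915) and CA9 like AVIL (0.915). For EGLN3, at the floor, no r was above 0.615. Among the members themselves the closest pairs were BNIP3 with HK2 (0.861) and BNIP3L with PDK1 (0.821), while BNIP3 with BNIP3L gave 0.642 and VEGFA with ADM gave 0.0122.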

How the data were processed

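RNA from hTERT-HPNE cells was made into TruSeq Stranded mRNA libraries. The authors aligned reads with HISAT2 (genome build hg19 per the submitters' processing notes) and counted them with htseq-count in Galaxy; versions, annotation and the strand setting of the counting are not given in the sources used here. The deposited log2 values are the authors' DESeq2 rLog values, which shrink differences, most where reads are few. Counts were not used, so depth is unknown and no interval or limit from it is given. Of 23368 genes listed, 3674 were at 0 in every library and 19694 were tested with limma 3.58.1 (R 4.3.3) on all 21 libraries in 7 groups, using the trended variance prior, and p was adjusted by Benjamini-Hochberg within each of 14 comparisons. A difference past 2-fold is an absolute log2 difference over 1. The script was tested on simulated data. Promoter letters came from RefSeq windows on GRCh38.p14, a build other than that of the values. All 10 members and the HIF list are named, and of each other list the 3 genes that passed with the largest differences and groups that did not overlap. Of 89 list genes 88 were tested, 4 by an older symbol. The members and lists were chosen with earlier results of these data known. Alternatives were library medians aligned, quantile normalization, a minimum mean of 5, only the groups compared, the replicate number as a block, no trend, 1 library left out and a limit of 0.58.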

Additional observations from a re-analysis of the deposited data

Results flagged for a closer look

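For 9 of the 10 genes the difference between H2O2 and NCS was not the same at 24 h as at 4 h, by limma's test of that change itself (39.4% of all genes passed). The change is the H2O2 minus NCS difference at 24 h less that at 4 h. It was -1.22 for HK2 (adjusted p = 1.9e-09), -0.88 for PDK1 (adjusted p = 4.09e-09), -0.88 for VEGFA (adjusted p = 9.34e-08), -0.40 for BNIP3 (adjusted p = 1.57e-07), -0.38 for BNIP3L (adjusted p = 8.74e-06) and -0.32 for EGLN1 (adjusted p = 0.00133). Smaller changes passed for CA9 (-0.16, adjusted p = 0.007), SLC2A1 (-0.10, adjusted p = 0.0117) and ADM, the one gene with a positive change (0.19, adjusted p = 0.0126). The ADM difference went from -0.04 at 4 h to 0.15 at 24 h, and that of SLC2A1 from 0.02 to -0.08. With quantile normalization those of CA9 (-0.07, adjusted p = 0.27) and SLC2A1 (-0.0088, adjusted p = 0.857) did not pass. The untreated libraries do not enter this test. What underlies the changes was not tested.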

How the results depend on the processing

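Of 28 counts of members, 5 moved by more than 1.5 times. With only the groups compared in the fit, 3 rather than 5 members passed at 8 h of NCS. With a limit of 0.58 in place of 1 on the log2 difference, 2 rather than 1 were past it at 4 h of H2O2, 1 rather than 0 at 24 h of NCS, 1 rather than 0 from 8 to 24 h of NCS, and 3 rather than 1 in the change of the H2O2 minus NCS difference. With 1 library left out, 6 to 8, 5 to 6 and 4 to 5 members passed in H2O2 in order of time, and 3 to 5, 4 to 5 and 4 to 5 in NCS. Between the agents the ranges were 7 to 7, 7 to 8 and 5 to 7, and 4 to 5 passed from 8 to 24 h of H2O2. Over single genes these fits gave the same call 879 times, gained 7 and lost 14.

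The signs of EGLN3 turned with library medians aligned, to -0.02 at 24 h of H2O2, 0.02 and -0.03 for H2O2 against NCS at 8 and 24 h, -0.02 and 0.03 from 8 to 24 h of H2O2 and NCS, and -0.02 for the change of the difference. Its values were constant to 0.00149, so this shift of whole libraries set them. It did the same at 4 h of H2O2 and 8 h of NCS, where EGLN3 passed (-0.01 and -0.02, the latter with adjusted p = 0.00402). The same setting raised the genes called of all tested from 4703 to 7618 at 8 h of NCS, from 4315 to 7585 for H2O2 against NCS at 24 h and from 5883 to 9825 from 8 to 24 h of NCS. The percent of those calls that were higher went from 44.1 to 22.7, from 50.3 to 23.5 and from 49.8 to 74.5, and elsewhere it went from 57.1 to 46.1 at 4 h and from 50.4 to 35.2 at 24 h of H2O2, from 54.7 to 72.7 between agents at 8 h, from 45.5 to 32.5 from 8 to 24 h of H2O2 and from 42.3 to 28.4 for the change of the difference. With quantile normalization it went from 57.1 to 46.7 at 4 h of H2O2 and from 59.3 to 45.9 between agents at 4 h. The cause was not tested.

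No source ties replicate numbers to a shared batch or day, and not every pair of same-numbered libraries deviated together, so the numbers were not treated as a pairing. The correlations of their deviations ran from -0.149 to 0.213, with a mean of 0.0274 beside -0.0137 for different numbers, and 13 of 21 libraries correlated best with a library of their own number, a hint from the data and not from the design. With the replicate block 139 of 140 member results kept their call, and EGLN1 at 24 h of H2O2 (0.13) passed at adjusted p = 0.0375 rather than 0.0512. Depth is unknown, so what it limits for CA9 and EGLN3 cannot be given as a number.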
